A study of Homo sapiens with 2 samples.

Results

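The 44 genes described here encode acid hydrolases of the lysosome, their activator proteins, proteins of the lysosomal membrane and subunits of the proton pump that acidifies the organelle. They were listed by the function of their products, with earlier results of these data known though by no rule on binding values, and all 44 were found among the 20144 protein-coding genes of the annotation. They comprised 10 proteases, 11 glycosidases, 5 sulfatases, 7 lipid hydrolases and activators, 8 membrane and transport proteins and 3 subunits of the vacuolar ATPase. Binding of NRF1, the product of NFE2L1, was measured by chromatin immunoprecipitation and sequencing (ChIP-seq) with a rabbit polyclonal antibody. The cells were HCT116, an established human colorectal carcinoma line, treated with 1 µM of MG132, a peptide aldehyde that inhibits the proteasome, for 16 h. The peak list came from 1 ChIP library, so no value has a replicate, and the matching input library was not analysed here. Untreated cells and transcript levels were not analysed here, so that a peak speaks of NRF1 occupancy only.

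Lysosomal hydrolases are made in the endoplasmic reticulum, pass through the Golgi and become active at the acid pH that the vacuolar ATPase sets up in the lysosome, where they break down protein, glycans and lipids delivered by endocytosis and autophagy. Many of their genes carry an E-box in the promoter, the CLEAR element, which is bound by TFEB and its relatives of the MiT family. NRF1 is a basic leucine zipper factor that accumulates when the proteasome is inhibited, pairs with a small MAF protein and binds the antioxidant response element (ARE), through which it raises transcription of proteasome subunits.

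Of the 44 lysosomal genes, 8 had the centre of an NRF1 peak within 2 kb of an annotated transcription start site (TSS), namely CTSD, GLA, GLB1, GUSB, IDUA, PSAP, PPT1 and ATP6V1H. The sequences at the peaks of 6 of them are shown first, since the form of the ARE is what these peaks differ in. The ARE was searched on both strands as TGACNNNGC or TGAGNNNGC, and its full form as TGACTCAGC or TGAGTCAGC, with any other ARE called degenerate. A match is a description of the sequence and not a proven binding site. Each line gives the ARE nearest to the centre of the peak with 10 bases on either side, read 5′ to 3′ on the strand of the ARE from the hg19 (GRCh37) genome, with the ARE in capitals. The first 4 hold the full form and the last 2, at the first exons of CTSD and GLA, do not.
PSAP, chr10:73611118-73611126, plus strand, upstream of exon 1: aacagcgcccTGACTCAGCgcctctgagg
IDUA, chr4:987267-987275, minus strand, intron 2: gagaaacccaTGACTCAGCaatctgtagg
PPT1, chr1:40558671-40558679, plus strand, intron 1: gattactaaaTGACTCAGCaattcaactc
GLB1, chr3:33074618-33074626, minus strand, intron 10: tgatgctaagTGAGTCAGCacattgggtg
CTSD, chr11:1785145-1785153, plus strand, exon 1: atagccgggaTGACGCCGCagttgggccg
GLA, chrX:100662888-100662896, minus strand, exon 1: ccggtcaccgTGACAATGCagctgaggaa

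Longer stretches are shown for PSAP and CTSD, the only genes of the 44 that had a peak at the canonical TSS and a second, higher peak upstream. The first is the 200 bases before the canonical TSS of PSAP, and the others are the central 150 bases of the upstream peaks. All are on the minus strand, on which both genes are transcribed, and AREs on either strand are in capitals, so that GCTGAGTCA is a full ARE read from the opposite strand. The ARE of the PSAP promoter lay 114 bp before its TSS, and each upstream peak held 2 full AREs near its centre, 40 bp apart at PSAP and 44 bp apart at CTSD.
PSAP promoter, chr10:73611009-73611208: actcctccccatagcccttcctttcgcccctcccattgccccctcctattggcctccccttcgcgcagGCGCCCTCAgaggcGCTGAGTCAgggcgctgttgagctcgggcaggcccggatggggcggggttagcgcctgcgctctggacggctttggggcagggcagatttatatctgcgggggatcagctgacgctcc
PSAP upstream peak, chr10:73620312-73620461: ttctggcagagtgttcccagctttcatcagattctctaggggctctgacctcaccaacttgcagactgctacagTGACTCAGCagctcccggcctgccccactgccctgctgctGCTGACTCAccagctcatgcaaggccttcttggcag
CTSD upstream peak, chr11:1793855-1794004: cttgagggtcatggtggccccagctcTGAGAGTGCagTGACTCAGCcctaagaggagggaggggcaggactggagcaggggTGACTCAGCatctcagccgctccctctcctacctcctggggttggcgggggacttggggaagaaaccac

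The share of lysosomal genes with a peak was compared with that of all protein-coding genes. Within 2 kb of any annotated TSS, 8 of 44 lysosomal genes had a peak, or 18.2% (95% Wilson interval 9.51 to 32.0), and 1215 of 20144 protein-coding genes did, or 6.03% (5.71 to 6.37). Within 20 kb, 11 of 44 had a peak, or 25.0% (14.6 to 39.4), against 3766 protein-coding genes, or 18.7%, which lies inside the interval of the lysosomal genes. The 3 genes added by the wider window were CTSL, GALNS and NPC1. The intervals cover counting error only, and genes that share a neighbourhood or a function are not independent draws. The peaks nearest to the limit of 2 kb on its inner side lay at 1593 bp, at PPT1, and 1599 bp, at IDUA, and the next beyond it at 3674 bp, at NPC1. The nearest beyond 20 kb lay at 28581 bp, at MANBA, a beta-mannosidase, 33426 bp, at NPC2, a lysosomal cholesterol carrier, and 33542 bp, at ATP6V0D1.

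The lysosomal genes had more annotated TSSs than most genes, with a median of 13 (range 1 to 57) against a median of 5 for all protein-coding genes. The part of this in the shares was not tested. At the canonical TSS, the start of the 1 transcript that the annotation marks as representative, 3 of 44 lysosomal genes had a peak within 2 kb, or 6.82% (2.35 to 18.2), against 743 protein-coding genes, or 3.69%. Within 20 kb of it, 7 of 44 did, or 15.9% (7.93 to 29.4), against 2629 protein-coding genes, or 13.1%. Both background shares lay inside the intervals of the lysosomal genes. Among genes with 13 or more TSSs, a subset chosen after the data were seen, 4 of 24 lysosomal genes had a peak within 2 kb of any TSS, or 16.7% (6.68 to 35.9), against 389 of 3273 protein-coding genes, or 11.9%. Within 20 kb, 6 of these 24 lysosomal genes did, or 25.0% (12.0 to 44.9), against 29.4% of the 3273. In these 6 comparisons, the background lay below the interval of the lysosomal genes within 2 kb of any annotated TSS over all 44 genes, and inside it in the other 5. The MACS score is 10 times the negative log10 of the peak caller's p-value. With peaks of a score of at least 100, at any annotated TSS, the background lay below the interval in both windows, though only just within 20 kb. The shares were then 13.6% (6.4 to 26.7) against 3.01% within 2 kb and 18.2% (9.51 to 32.0) against 9.46% within 20 kb. With each peak given to its nearest protein-coding TSS alone, they were 15.9% (7.93 to 29.4) against 5.28% within 2 kb. Within 20 kb they were 20.5% (11.2 to 34.5) against 12.9%, so that the background lay below the interval in the narrower window only. It lay inside the interval within 1 kb of any annotated TSS, and within 2 kb of the TSSs of protein-coding transcripts.

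**Figure D1:**
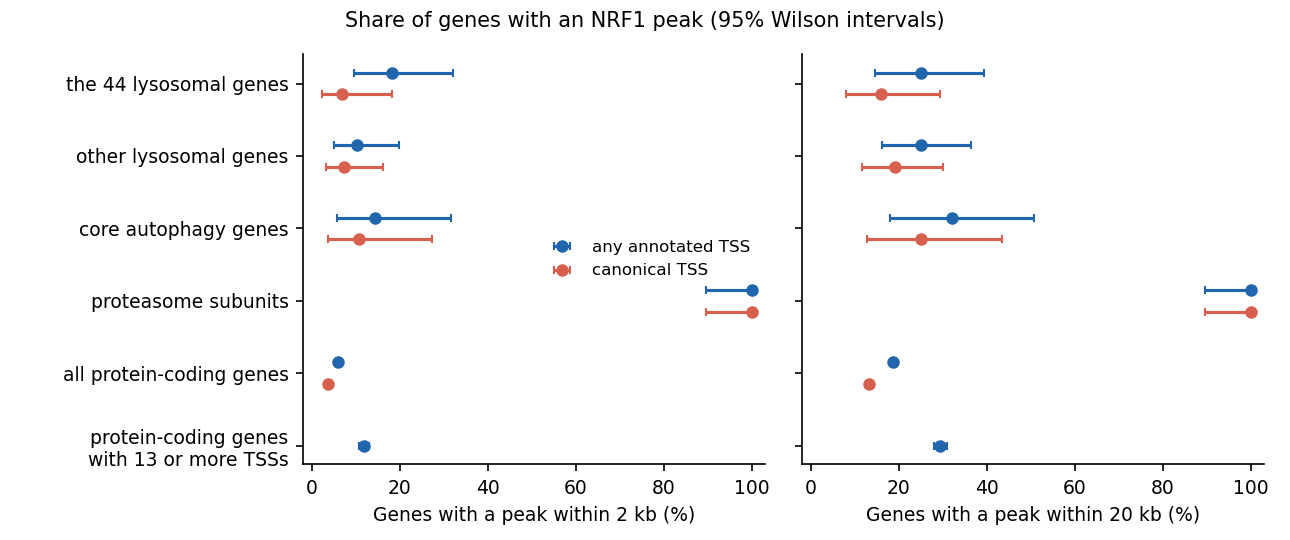
Share of genes (x axis, percent) with an NRF1 peak centre within 2 kb (left) or 20 kb (right), for the gene lists on the y axis, with 95% Wilson intervals as bars, by any annotated TSS (blue) or the canonical TSS (orange). The 44 lysosomal genes sit at 18.2% and 6.82% within 2 kb, while the proteasome subunits sit at 100%.

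Glycosidases, which remove sugars from glycoproteins, glycolipids and glycosaminoglycans, made up 4 of the 8 genes with a peak within 2 kb. These were 4 of 11 glycosidases, or 36.4% (15.2 to 64.6), against 6.03% of protein-coding genes. At the canonical TSS 1 of 11 had a peak within 2 kb, or 9.09% (1.62 to 37.7), against 3.69%, which lies inside the interval. Differences between the roles were not tested. The peak at GLA, the alpha-galactosidase deficient in Fabry disease, had a MACS score of 97.23 and its centre 25 bp inside the canonical transcript. A higher score marks a stronger peak. The single ARE of this peak overlapped the start of the GLA coding sequence, with 5 of its bases in the 5′ UTR and 4 in the coding sequence. The same peak lay 322 bp upstream of the TSS of HNRNPH2, an RNA-binding protein gene on the opposite strand, and which of the genes it belongs to was not tested.

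The other 3 glycosidase peaks lay inside the gene, near the start of a shorter transcript. GUSB encodes beta-glucuronidase, and its peak (score 113.38) lay in intron 9, 14271 bp into the gene and 34 bp upstream of a transcript annotated as a retained intron. IDUA encodes alpha-L-iduronidase, which acts on dermatan and heparan sulfate, and its peak in intron 2 had a score of 182.47, the highest of the 8 genes within 2 kb. It lay 1599 bp downstream of a TSS of IDUA but only 31 bp upstream of a TSS of SLC26A1, a sulfate anion transporter gene, which was its nearest protein-coding gene. GLB1 encodes beta-galactosidase, and its peak (score 103.69) lay in intron 10, 64075 bp from the canonical TSS and 1432 bp from that of a transcript with no defined coding sequence. Another peak, outside the window of 20 kb, lay 24181 bp from the canonical TSS of GLB1. The remaining 7 glycosidase genes had no peak within 20 kb, with the nearest at 28581 bp for MANBA, 37186 bp for GAA, the acid alpha-glucosidase deficient in Pompe disease, and 40554 bp for NEU1, a sialidase.

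Of the 10 proteases, CTSD and CTSL had peaks within 20 kb. CTSD, the main aspartic protease of the lysosome, had a peak at chr11:1784836-1785404 with a score of 115.67 and its centre 37 bp downstream of the canonical TSS in exon 1. That exon is also overlapped by a second protein-coding gene model, known only by its identifier ENSG00000250644. The upstream peak of CTSD, at chr11:1793559-1794299, lay 8772 bp before the canonical TSS and scored 265.45, above 90.2% of all peaks, and CTSD was the nearest protein-coding gene of both. CTSL encodes a cysteine protease, cathepsin L, and its peak (score 200.92) lay 12558 bp upstream of the canonical TSS, with a single degenerate ARE. The other 8 proteases had no peak within 20 kb, and their nearest peaks lay from 46753 bp, for CTSA, to 424816 bp, for CTSB, a cysteine protease.

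Of the 7 lipid hydrolases and activators, PSAP and PPT1 had peaks within 2 kb of a TSS, or 28.6% (8.22 to 64.1), against 6.03% of protein-coding genes. At the canonical TSS it was 1 of 7, or 14.3% (2.57 to 51.3), against 3.69%, which lies inside the interval. The window of 20 kb added no gene of this group, and 18.7% of protein-coding genes had a peak in it. PSAP encodes prosaposin, the precursor of the saposins that present sphingolipids to their hydrolases, and was the only one of the 44 genes with a full ARE inside a peak within 2 kb of its canonical TSS. The promoter peak, at chr10:73610794-73611378, had its centre 78 bp upstream of the TSS and a score of 120.84. The upstream peak, at chr10:73619867-73620906, lay 9378 bp before the TSS and scored 687.86, rank 44 of 5683 peaks and higher than 99.2% of them. Its nearest protein-coding gene was PSAP. PPT1, a thioesterase that removes palmitate from proteins, had a peak in intron 1 with a score of 58.56, near the low end of the list, 4286 bp from the canonical TSS. The other 5 genes of the group, among them ASAH1 (acid ceramidase), SMPD1 (acid sphingomyelinase) and GALC (galactosylceramidase), had no peak within 20 kb, and the nearest lay 46310 bp from LIPA, the acid lipase.

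None of the 5 sulfatases and none of the 8 membrane and transport proteins had a peak within 2 kb of any TSS. The Wilson intervals of these shares ran from 0.0 to 43.4% and from 0.0 to 32.4%. The share of all protein-coding genes, 6.03%, lay inside both, so these counts do not set either group apart from the background. GALNS, the sulfatase deficient in Morquio syndrome type A, had a peak of score 57.57 within 20 kb, beyond the 3′ end of its canonical transcript. The peak lay inside APRT, the adenine phosphoribosyltransferase gene, 151 bp upstream of a TSS of APRT and 1379 bp downstream of the canonical one. NPC1, which exports cholesterol from the lysosome, had 3 peaks within 20 kb. A peak of score 108.59 lay in its intron 11, 40142 bp from the canonical TSS. The other 2, of score 56.03 and 138.96, lay beyond the 3′ end of its canonical transcript but inside the span of all its transcripts. They were 170 bp downstream and 535 bp upstream of TSSs of RMC1, a neighbouring gene. Both lay inside RMC1, 26255 bp and 25292 bp downstream of its canonical TSS. For LAMP1 and LAMP2, the abundant glycoproteins of the lysosomal membrane, the nearest peaks lay 80341 bp and 9795476 bp away. LAMP2 is on the X chromosome, which held 56 peaks in all.

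Of the 3 subunits of the vacuolar ATPase, ATP6V1H, a regulatory subunit of the peripheral V1 part, had a peak in intron 11 with a score of 135.37. It lay 74817 bp from the canonical TSS and 1260 bp from the TSS of a transcript with no defined coding sequence, and held 1 full and 1 degenerate ARE. ATP6V0D1 and ATP6AP1 had no peak within 20 kb, with the nearest at 33542 bp and 58795 bp.

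Across the roles, 5 of the 8 genes with a peak within 2 kb had it only at a TSS other than the canonical one. So did 472 of the 1215 protein-coding genes with a peak within 2 kb, and the difference was not tested. In 3 of the 5 lysosomal genes (GLB1, IDUA and ATP6V1H) the transcript was annotated without a defined coding sequence. In GUSB it was a retained intron, and in PPT1 it was protein-coding. Of the 8 peaks, 7 had the lysosomal gene as their nearest protein-coding gene. The 33 lysosomal genes with no peak within 20 kb had their nearest peak at a median of 76108 bp. Over all 44 the median distance was 47354.5 bp, against 104978.5 bp over all protein-coding genes, and from the canonical TSS alone it was 55941.5 bp against 122108.5 bp.

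**Figure D2:**
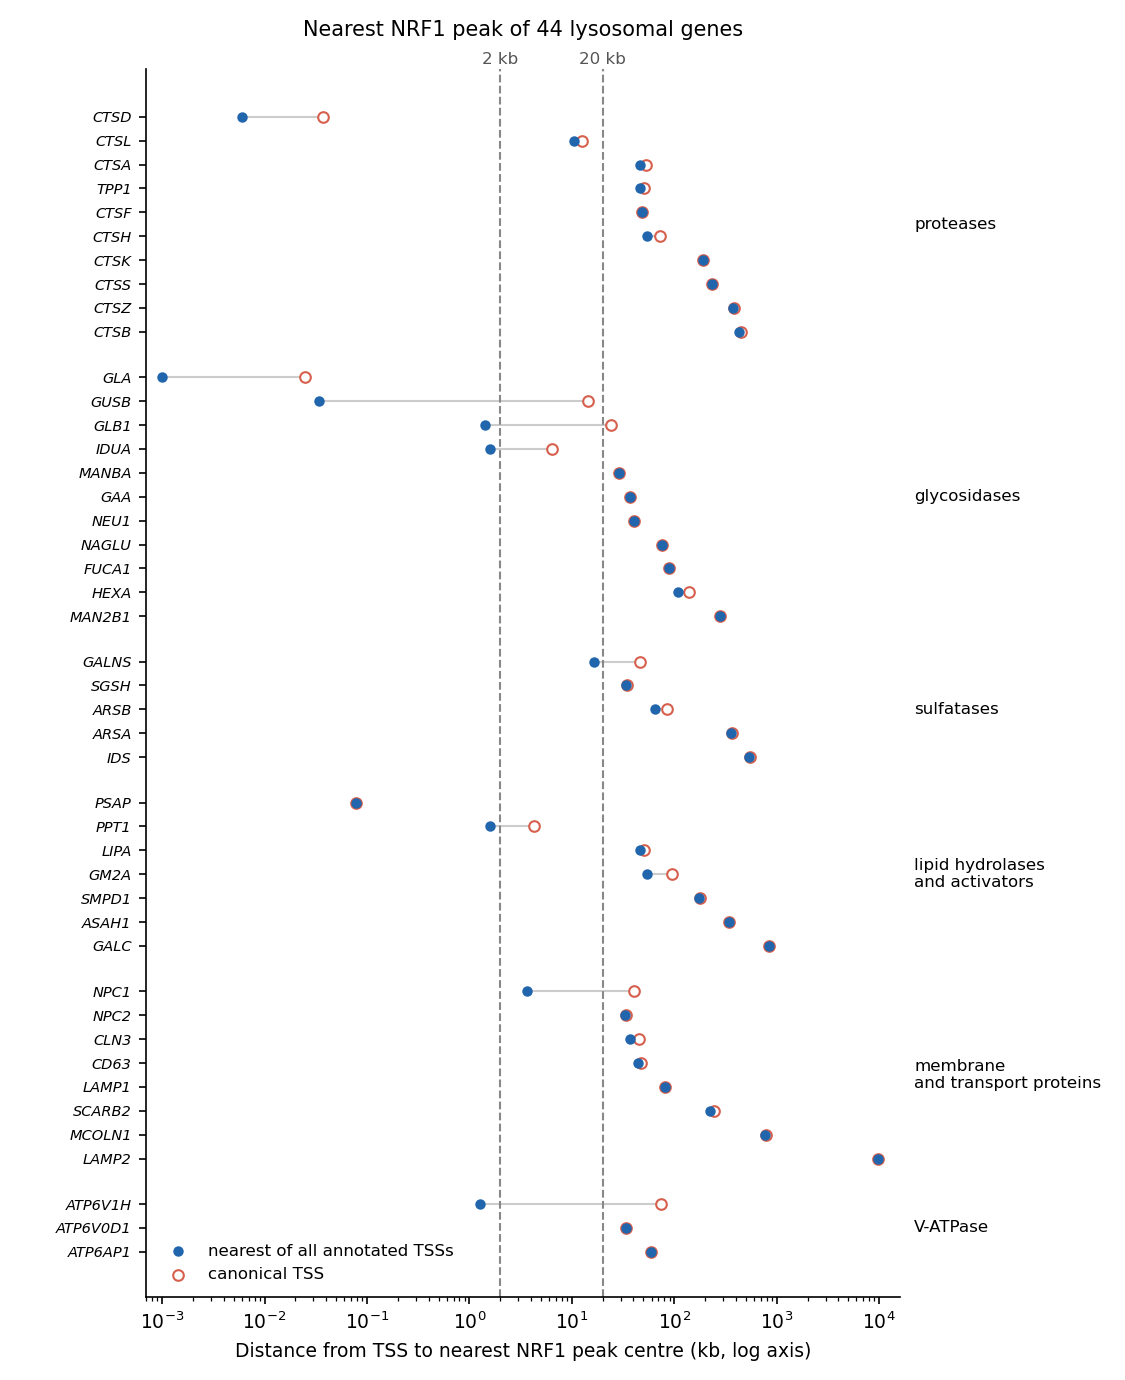
Distance in kb (x axis, log scale) from each of the 44 lysosomal genes (y axis, by role) to its nearest NRF1 peak centre, measured from the nearest annotated TSS (blue) or the canonical TSS (open orange), with dashed lines at 2 kb and 20 kb. Only CTSD, GLA and PSAP have the open symbol left of 2 kb, and GUSB, GLB1, IDUA, PPT1 and ATP6V1H cross the line between the symbols.

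The peaks at lysosomal genes were of middling strength. Over the 8 genes, the score of the best peak within 2 kb ranged from 58.56 to 182.47 with a median of 114.52, against a median of 97.21 over the 1122 peaks within 2 kb of any protein-coding gene. The strongest peak within 20 kb of any of the 44 genes was the upstream peak of PSAP at 687.86. It was followed by the upstream peak of CTSD at 265.45 and that of CTSL at 200.92, all 3 more than 2 kb from a TSS of the gene. As a reference for NRF1 targets, all 33 proteasome subunit genes tested had a peak within 2 kb, with a median best score of 311.38 (range 90.61 to 1128.13). The highest lysosomal score within 2 kb, 182.47 at IDUA, was below that median.

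**Figure D3:**
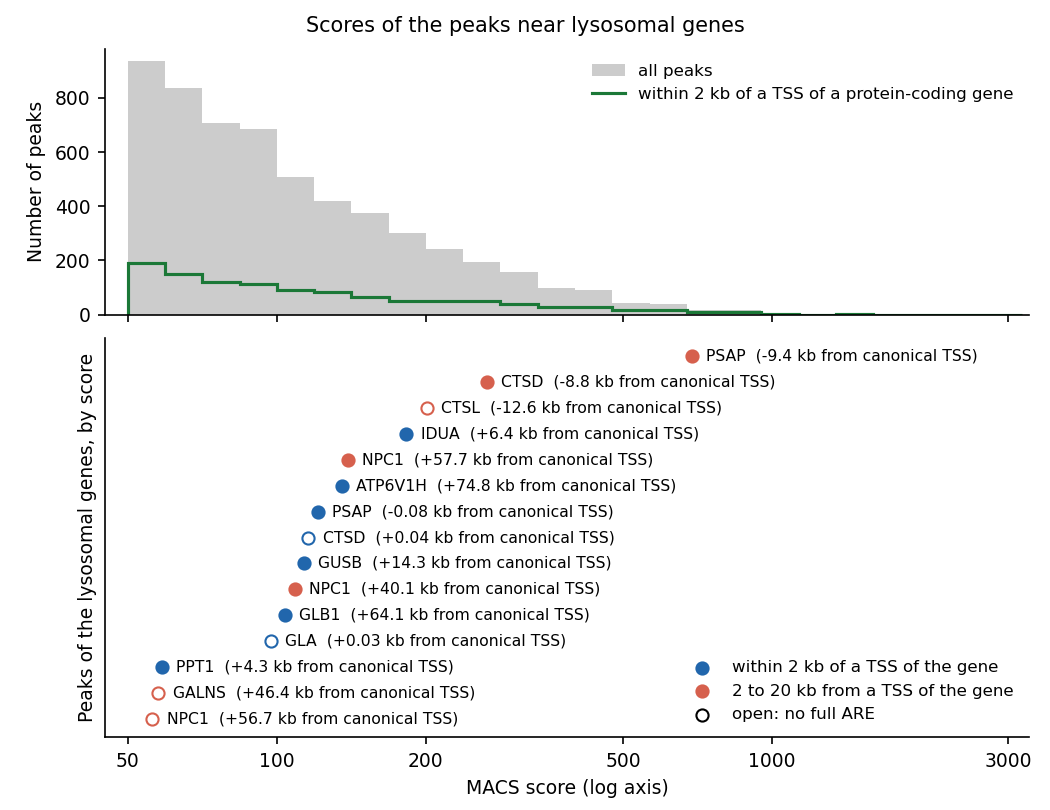
Top, number of peaks (y axis) by MACS score (x axis, log scale), for all peaks (grey) and those within 2 kb of a protein-coding gene (green line). Bottom, each of the 15 peaks within 20 kb of a lysosomal gene at its score, blue within 2 kb and orange beyond, open where no full ARE was found: the upstream peak of PSAP at 687.86 stands furthest to the right.

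All 8 peaks within 2 kb of a lysosomal gene held an ARE, and 6 of them, or 75.0% (40.9 to 92.9), held the full form. Of the 1122 peaks within 2 kb of a protein-coding gene, 85.2% held an ARE and 43.2% the full form, which lies inside the interval of the lysosomal peaks. The peaks were also divided by whether they lay within 2 kb of a canonical TSS of any protein-coding gene. Of the lysosomal peaks, 4 did not (GLB1, GUSB, PPT1 and ATP6V1H), and all 4 held a full ARE, against 61.5% of 462 such peaks of protein-coding genes. The other 4 did, that of IDUA being near the canonical TSS of SLC26A1, and 2 of them, those of PSAP and IDUA, held a full ARE, against 30.5% of 660. Within 20 kb, 14 of 15 lysosomal peaks held an ARE, or 93.3% (70.2 to 98.8), and 10 the full form, or 66.7% (41.7 to 84.8). Of the 3028 peaks within 20 kb of a protein-coding gene, 87.1% held an ARE and 56.5% the full form. Both background shares lay inside the intervals of the lysosomal peaks. The lysosomal peak without an ARE was the weak peak of NPC1 at 56.03. In the 14 lysosomal peaks with an ARE, the closest one was a median of 24 bp, and at most 133 bp, away from the peak centre. An ARE lay in the central 200 bp in 13 of the 15, or 86.7% (62.1 to 96.3), against 78.8% of the 3028. At least 2 full AREs, as in the upstream peaks of PSAP and CTSD, were found in 236 of 5678 peaks, or 4.16%, which had a median score of 163.43.

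**Figure D4:**
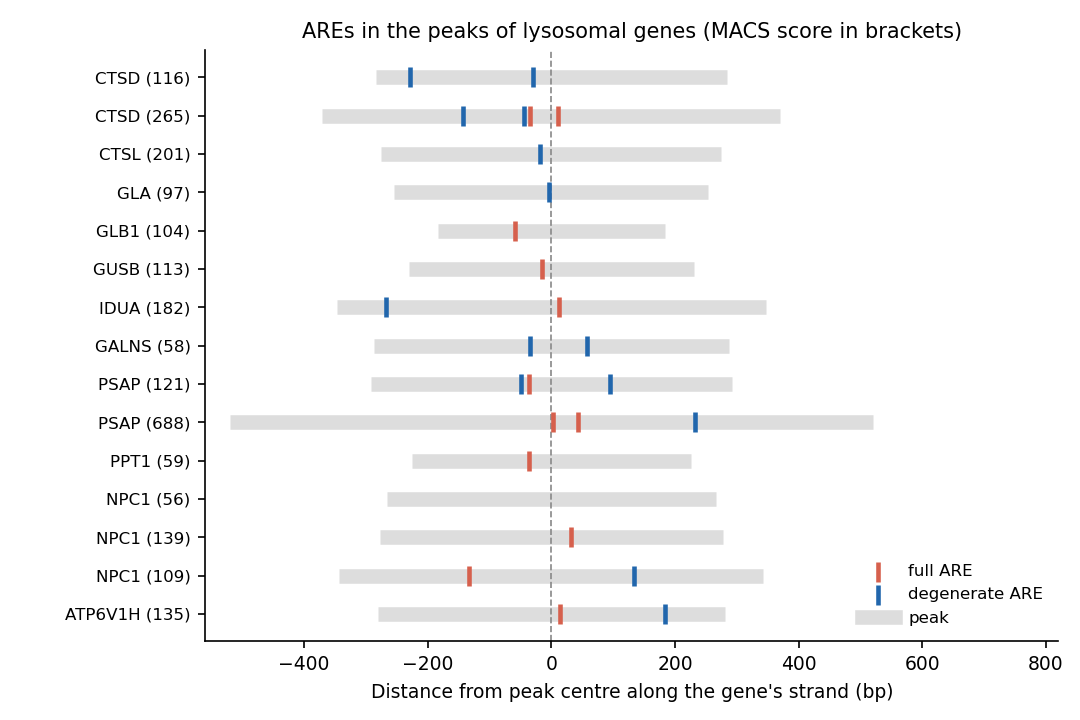
Position of AREs (ticks, orange for the full form, blue for degenerate ones) in the 15 peaks (grey bars, drawn to length) within 20 kb of a lysosomal gene, in bp from the peak centre along the strand of the gene, with the MACS score in brackets. In 14 peaks a tick lies within 133 bp of the centre, and the peak of NPC1 at 56 holds none.

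Most lysosomal genes with a full ARE close to the canonical TSS had no peak there, nor did most such protein-coding genes. Genes were counted here, whether or not the ARE lay inside the peak. Within 2 kb of the canonical TSS, 6 of 44 lysosomal genes had a full ARE in the genome sequence, or 13.6%, against 7.3% of protein-coding genes, and 1 of these 6, PSAP, or 16.7%, had a peak there. Among protein-coding genes with such an ARE, 16.8% of 1471 had a peak within 2 kb of the canonical TSS. Of the 5 without a peak there, 4 are shown for comparison with the occupied ones above, in the same form. CTSF and GAA encode a cathepsin and the acid alpha-glucosidase, while IDS encodes iduronate sulfatase and LIPA the acid lipase.
CTSF, chr11:66336331-66336339, plus strand, 258 bp upstream: ccgggctctgTGACTCAGCcctgtaatcc
GAA, chr17:78074420-78074428, plus strand, 956 bp upstream: taagcctttcTGAGTCAGCcttacttatt
IDS, chrX:148585129-148585137, minus strand, intron 2: gagctctgcaTGACTCAGCtaccaagctg
LIPA, chr10:91010700-91010708, plus strand, intron 1: tgtaacaatcTGACTCAGCtttgtacccc

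The CLEAR-type E-box was searched as TCACGTGA, which reads the same on both strands, from 250 bases before to 50 after the canonical TSS. It was found in 9 of 44 lysosomal genes, or 20.5%, against 294 of all protein-coding genes, or 1.46%. The 9 were CTSA, GAA, HEXA (the alpha subunit of beta-hexosaminidase), GALNS, LAMP1, MCOLN1 (a calcium channel), CLN3, ATP6V1H and ATP6V0D1. Of these, ATP6V1H had a peak within 2 kb of a TSS, far from the promoter that holds the E-box, and GALNS had one within 20 kb. Among the 294 protein-coding genes with this E-box, 19 had a peak within 2 kb of a TSS. None of the 15 peaks near lysosomal genes held TCACGTGA, nor did most others, with 40 of 5678 peaks holding it, or 0.704%. The absence of these letters from a window says nothing of the factors themselves.

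Other genes of the lysosome and of autophagy were counted in the same way. Of 68 further lysosomal genes, 7 had a peak within 2 kb of any TSS, or 10.3% (5.08 to 19.8), and 17 within 20 kb, or 25.0%. At the canonical TSS 5 of the 68 had a peak within 2 kb, or 7.35% (3.18 to 16.1). The 7 were ABCB9, ARSG, ATP6V0A1, ATP6V0E1, ATP6V1G1, CTSC and LAPTM4B. Their best scores within 2 kb ranged from 66.23 to 90.16, so that none reached 100, which 6 of the 8 genes above did. Of the 1215 protein-coding genes with a peak within 2 kb, 606 had one of at least 100. Within 20 kb, 6 of the 68 had a peak of at least 100, the highest of score 1395.6, 17654 bp from a TSS of GNPTG. Of 28 core autophagy genes, 4 had a peak within 2 kb, or 14.3% (5.7 to 31.5), and 3 at the canonical TSS, or 10.7% (3.71 to 27.2). The background of 6.03% lay inside the intervals of both lists within 2 kb of any TSS. At the canonical TSS the background was 3.69%. It lay inside the interval of the further lysosomal genes and just below that of the core autophagy genes. Differences between the lists and the 44 genes were not tested. Of the 4 MiT family genes, TFE3 had a peak of score 167.84 with a full ARE. It lay 228 bp upstream of a TSS but 3327 bp downstream of the canonical one. TFEC had a peak of score 57.19, 68 bp upstream of a TSS. Another, of score 124.49 and with a full ARE, lay 6009 bp upstream of a TSS of TFEC. TFEB and MITF had none within 20 kb.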

How the data were processed

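The deposited values were the intervals and scores of 5683 peaks from 1 NRF1 ChIP library. Per the study's methods and the submitters' processing notes, the authors made single-end reads with bcl2fastq in CASAVA 1.8.2, aligned them to hg19 with Bowtie2 2.2.6 and called peaks with MACS 1.4.2. The deposited score is 10 times the negative log10 of the MACS p-value, and none was below 50. MACS settings, duplicate removal and the control library used are not given in the sources used here. The files hold no read counts, so the depth is unknown and a missing peak cannot be told apart from one too weak to be called. The input library was not analysed here.

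BED starts were converted to count from 1. Distances ran from the peak centre to the TSSs of all transcripts of each protein-coding gene in GENCODE release 44 mapped to GRCh37, with pseudoautosomal copies counted once. Windows were 2 kb and 20 kb. Shares carry 95% Wilson intervals, and no test was run. Motifs were read from the GRCh37 sequence over the whole peak, for the 5678 peaks on chromosomes 1 to 22, X and Y, and the sequences of some sites are not reported here. Named were all of the 44 genes with a peak within 20 kb, the 3 just outside each window, further lysosomal genes with a peak within 2 kb and the MiT family. Other genes were named after their values were seen. Members and gene lists were chosen with earlier results of these data known. Alternatives changed the score threshold, the TSS set, the window, the distance measure, merging of peaks within 500 bp and the ARE form. Counting was tested on simulated intervals. Python 3.11.15, numpy 2.4.6, pandas 2.3.3, scipy 1.17.1, pysam 0.24.0 and matplotlib 3.10.9 were used.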

Additional observations from a re-analysis of the deposited data

How the results depend on the processing

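The counts moved with the choice of TSS and with the score threshold. The number of lysosomal genes with a peak within 2 kb fell from 8 to 3 at the canonical TSS, to 4 with the TSSs of protein-coding transcripts alone and to 4 in a window of 1 kb, and the number with an ARE in that peak also fell from 8 to 3 at the canonical TSS. Within 20 kb the canonical TSS took both counts from 11 to 7. For all protein-coding genes the count within 2 kb went from 1215 to 743 at the canonical TSS. With the TSSs of protein-coding transcripts alone, the share of lysosomal genes within 2 kb was 9.09% (3.59 to 21.2), against 4.86% of protein-coding genes. In a window of 1 kb it was 9.09% (3.59 to 21.2), against 4.76%. Both background shares lay inside the intervals of the lysosomal genes. A score of at least 100 left 606 protein-coding genes within 2 kb and 1905 within 20 kb, and 0 and 6 of the 68 further lysosomal genes, against 6 and 8 of the 44. Among genes with 13 or more TSSs, chosen after seeing the data, the counts were 4 and 6 lysosomal genes and 389 and 962 protein-coding genes. The other 31 values computed stayed within 1.5 times of the first. With 1 library there is no replicate to leave out, and the depth that limits the weakest peaks is unknown.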
